A study of Mus musculus with 18 samples.

Results

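The data held the transcripts of 36 macrophage genes in cultures labelled as primary mouse preadipocytes. The 36 genes were a fixed list of known leukocyte and macrophage genes, chosen with earlier results of these data known. All 36 were among the 17001 gene symbols measured in undifferentiated cells, 25 were among the 15482 measured in differentiated cells, and 17267 symbols were present in either table. The list had 6 classes: 6 leukocyte-wide genes, 14 pan-macrophage genes, 3 chains of complement C1q, 5 lectins and co-receptors, 5 genes of resident-like macrophages and 3 genes of lipid-associated macrophages.

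Polyadenylated RNA was sequenced from 18 libraries of preadipocytes of epididymal white fat (eWAT), all of WT genotype, in 6 groups of 3. The undifferentiated groups were cells of the control diet (CD) treated with TGF-b1 and SB431542, CD cells treated with TGF-b1 alone, mock-treated cells of the high-fat diet (HFD), and mock-treated CD cells. SB431542 is a small-molecule inhibitor of the kinase of the TGF-b type I receptor. The other groups were sorted by flow cytometry with an antibody to CD49e, the integrin alpha 5 chain encoded by Itga5, into Itga5-High and Itga5-Low cells, and both were then put through adipogenic differentiation. No dose, duration, age, sex or number of mice is given in the labels, nor whether the replicates came from separate mice or cultures, and no diet is given for the sorted cells. Replicates of a group differed by little more than counting noise (chi-square per degree of freedom 1.15 to 1.25), and the p-values below therefore reflect the scatter of these libraries alone, which may be technical. The depth in total estimated counts ran between 11811029 and 12599427 with TGF-b1 and SB431542, between 12235299 and 16130949 with TGF-b1, between 12698200 and 14729434 in HFD mock, and between 11154450 and 13846891 in CD mock. It ran between 12043449 and 16721734 in Itga5-High cells and between 15944193 and 17288614 in Itga5-Low cells.

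Macrophages are phagocytes of the myeloid lineage that depend on the receptor Csf1r and its ligands Csf1 and Il34, and on the transcription factor PU.1, encoded by Spi1. Fat holds resident macrophages that carry scavenger and mannose receptors such as Cd163 and Mrc1, and in obesity it also holds lipid-laden macrophages marked by Trem2 and Gpnmb. Cells taken from digested fat and grown on plastic can carry macrophages along, since both attach.

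The 36 genes together took 0.378% of all counts with TGF-b1 and SB431542, 0.127% with TGF-b1, 0.515% in HFD mock, 0.165% in CD mock, 0.0337% in Itga5-High and 0.0267% in Itga5-Low libraries. Defining macrophage genes such as Adgre1 were present in every undifferentiated group, beside the preadipocyte marker Pdgfra at a mean of 486 CPM (counts scaled to the size of the library) in CD mock cells. Lyz2 and Gpnmb weighed heavily in these shares. Without them the summed CPM was 1409.5, 534.6, 3009.5, 617.4, 54.7 and 30.1 in the same order of groups. Over all members it was 1610.9 in CD mock, 342.1 in Itga5-High and 263.6 in Itga5-Low cells, where Gpnmb alone had 281.4 and 227.5 in the sorted cells. In bulk RNA, fewer macrophages and less of a transcript in each macrophage cannot be told apart. Per kilobase of transcript, the most abundant member in all 4 undifferentiated groups was Lyz2, the lysozyme of myeloid cells, at 530.8, 363, 1099.6 and 290.2 CPM per kb with TGF-b1 and SB431542, with TGF-b1, in HFD mock and in CD mock. Gpnmb, a glycoprotein of lipid-laden macrophages that other cells can also make, was second at 385.0, 122, 309 and 180.8 CPM per kb in the same groups. Lyz2 lies 5522 bases from its near-identical copy Lyz1, and how the authors' counting split reads between them is not given in the sources used here, so its values are uncertain to that extent.

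PU.1 binds purine-rich DNA around the letters GGAA, and many myeloid promoters carry such a sequence. The 250 bases before the start of the gene were searched on both strands for the letters GAGGAA, which read TTCCTC on the other strand, and RefSeq windows on GRCm38.p6, the mm10 build, were found for 27 of the 36 genes. GAGGAA was in the windows of 16 of these 27 genes (59.3%), against 25.9% of 27025 genes with a window. AGGAAGT was in 11 (40.7%), against 8.80%, and the longer GAGGAAGT, which overlaps both, was in 4 (14.8%), against 2.79%. The strings were chosen with the windows in view, and a match is a description of the letters, not a binding site. The windows of 4 genes described in detail below, 2 of the C1q chains, the mannose receptor and Cd72, are shown, 5′ to 3′ on the gene's strand, with GAGGAA or TTCCTC in capitals: C1qb (chr4:136886201-136886450, minus strand), C1qc (chr4:136892915-136893164, minus strand), Cd72 (chr4:43454627-43454876, minus strand) and Mrc1 (chr2:14229164-14229413, plus strand).
C1qb: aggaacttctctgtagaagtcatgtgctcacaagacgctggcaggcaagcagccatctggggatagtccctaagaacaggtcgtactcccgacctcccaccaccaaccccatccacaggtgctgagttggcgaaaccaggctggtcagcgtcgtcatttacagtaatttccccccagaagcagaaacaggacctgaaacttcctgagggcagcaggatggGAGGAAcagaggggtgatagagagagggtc
C1qc: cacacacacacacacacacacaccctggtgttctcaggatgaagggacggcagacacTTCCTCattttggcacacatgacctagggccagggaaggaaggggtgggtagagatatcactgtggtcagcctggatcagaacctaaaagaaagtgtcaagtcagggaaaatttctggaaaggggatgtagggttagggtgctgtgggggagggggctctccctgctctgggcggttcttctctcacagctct
Cd72: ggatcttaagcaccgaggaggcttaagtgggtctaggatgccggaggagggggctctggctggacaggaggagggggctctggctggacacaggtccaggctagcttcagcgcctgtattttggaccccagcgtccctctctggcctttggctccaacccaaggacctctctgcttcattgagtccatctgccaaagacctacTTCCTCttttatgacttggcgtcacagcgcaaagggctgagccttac
Mrc1: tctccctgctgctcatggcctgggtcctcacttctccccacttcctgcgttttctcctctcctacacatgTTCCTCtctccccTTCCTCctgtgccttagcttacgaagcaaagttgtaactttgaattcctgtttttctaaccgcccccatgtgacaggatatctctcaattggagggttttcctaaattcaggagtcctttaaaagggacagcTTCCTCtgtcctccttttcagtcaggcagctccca
The C1qb, C1qc and Cd72 windows held 1 copy each and the Mrc1 window held 3. All 4 genes are among the 16 with GAGGAA, and no window without it is shown.

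With TGF-b1, the macrophage genes did not move as a block. Genes of resident-like macrophages fell, the 3 C1q chains rose, and 7 of 14 pan-macrophage genes were not called. Of the 36 genes, 17 fell, 8 rose and 11 were not called against CD mock, where 34.2% of the 14078 genes tested were lower and 33.4% higher (edgeR quasi-likelihood test, Benjamini-Hochberg adjusted p under 0.05). The median log2 change was -0.18 over the 36 genes and -0.02 over all genes tested, so that falls among the members were somewhat above and rises somewhat below the background share. At a change of at least 1 log2 unit, 5 members were lower and 3 higher, against 11.2% and 3.59% of all genes. Scaled by total counts in place of TMM factors, which moved the median of all genes to -0.16, 23 members were lower and 8 higher, and 31.4% in place of 49.4% of all calls were higher.

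With SB431542 added to TGF-b1, nearly all macrophage genes were higher than with TGF-b1 alone. Of the 36, 32 rose, 1 fell (C1qa) and 3 were not called (Spn, Aif1 and Slamf9), where 41.4% of all genes tested were higher and 38.3% lower. The median log2 difference was 1.48 over the members and 0.04 over all genes, and 26 members rose by at least 1 log2 unit, against 18.1% of all genes, while 0 fell by as much, against 7.66%. Scaled by total counts, the median of all genes moved to 0.30 and that of the members to 1.74, and 70.0% in place of 52.0% of all calls were higher.

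The same libraries were also above CD mock, so that the macrophage transcripts with TGF-b1 and SB431542 stood higher than in cells that received neither. All 36 members were called higher and none lower than in CD mock, where 30.6% of all genes were higher and 30.4% lower. The median log2 difference was 1.26, against 0.01 over all genes, and 28 members rose by at least 1 log2 unit, against 7.83% of all genes (2.84% were lower by as much). The smallest called difference was that of C1qa, at 0.33 ± 0.07 log2 units (± SE throughout), and the libraries of Aif1 overlapped although it was called (adjusted p = 0.0403), a call that DESeq2 did not make (adjusted p = 0.0839). There was no group with SB431542 alone. Scaled by total counts, the median of all genes moved to 0.12 and that of the members to 1.37, and 67.7% in place of 50.1% of all calls were higher.

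Nearly all macrophage genes were higher in cells of the high-fat diet. Of the 36, 34 rose against CD mock, Mertk fell and Cd163 was not called, where 27.1% of all genes were higher and 26.6% lower. Aif1, 1 of the 34, had 17, 15 and 15 counts in HFD mock and passed the low-count filter only through those libraries. The median log2 difference was 2.26 over the members and -0.01 over all genes, and 32 members rose by at least 1 log2 unit, against 4.37% of all genes, while 0 fell by as much, against 7.37%. The comparisons of TGF-b1, of TGF-b1 with SB431542 and of the high-fat diet share the 3 CD mock libraries, and those with and without SB431542 share the TGF-b1 libraries. Their values are therefore set side by side and are not independent of each other. Scaled by total counts, 33.7% in place of 50.5% of all calls for the diet were higher.

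**Figure D1:**
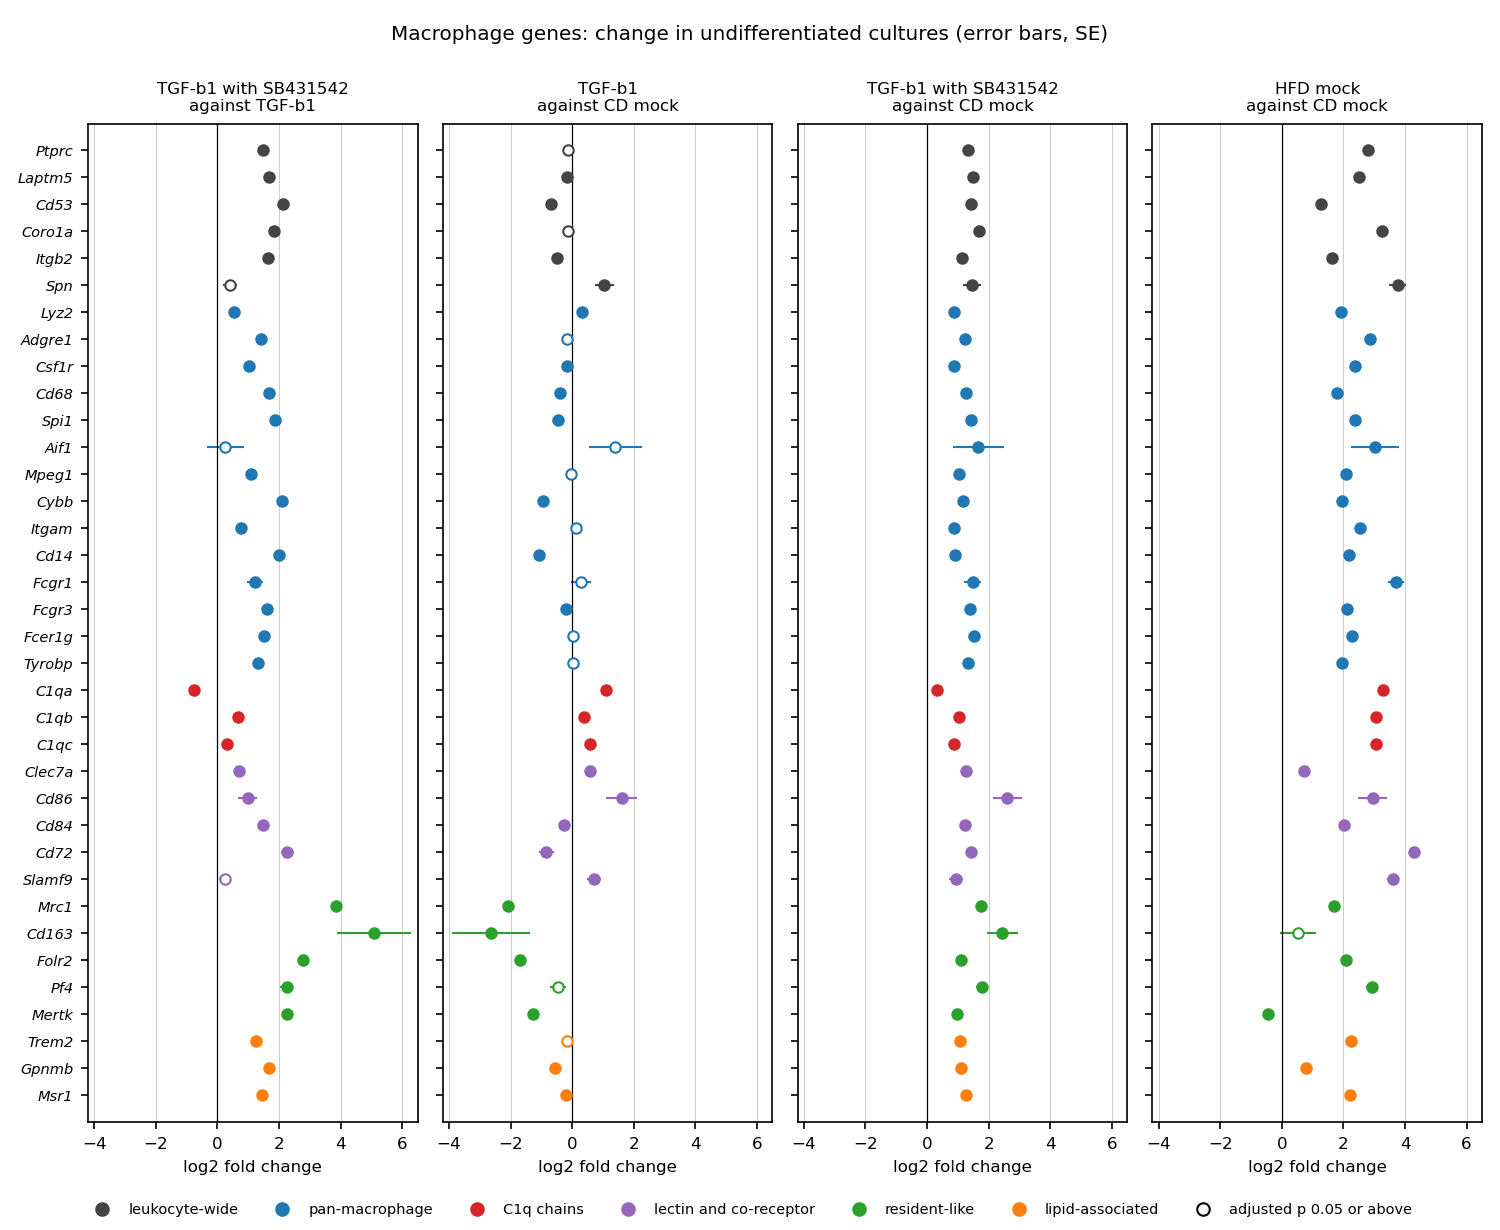
Log2 differences of the 36 macrophage genes in the 4 comparisons of undifferentiated cells, coloured by class, with error bars for the standard error and open circles for genes not called. With SB431542 against TGF-b1 all but C1qa lie above 0, and in HFD mock against CD mock all but Mertk do.

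Among the pan-macrophage genes, TGF-b1 lowered 6 of 14, raised 1 and left 7 without a call, with a median log2 change of -0.11, where 34.2% of all genes were lower and 33.4% higher. With SB431542 against TGF-b1, 13 of 14 rose (median 1.36), where 41.4% of all genes were higher. All 14 rose in the high-fat diet cells (median 2.23), where 27.1% were. Adgre1, which encodes the F4/80 antigen used to stain mouse macrophages, had 37.8, 37.2 and 36.7 CPM with TGF-b1 and SB431542, 12, 15.1 and 15 CPM with TGF-b1, 117, 115 and 116 CPM in HFD mock, and 16.8, 14.9 and 16.4 CPM in CD mock. The SB431542 and HFD libraries lay apart from all others, while those of TGF-b1 overlapped CD mock. Its log2 difference was 1.40 ± 0.07 with SB431542 against TGF-b1 (edgeR adjusted p = 1.06e-22) and 2.86 ± 0.07 in HFD against CD mock (2.72e-38), and -0.18 with TGF-b1 against CD mock, which was not called (0.059) but was at total-count scaling (-0.32, 0.000673).

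Csf1r, the receptor for Csf1 and Il34, had 77.1, 84.1 and 88.8 CPM with TGF-b1 and SB431542, 40.0, 40.0 and 41.2 CPM with TGF-b1, 238, 233 and 244 CPM in HFD mock, and 47.3, 43.8 and 45.6 CPM in CD mock. The groups did not overlap. The TGF-b1 libraries fell by 0.17 ± 0.05 log2 units against CD mock (edgeR adjusted p = 0.00719), those with SB431542 rose by 1.04 ± 0.05 against TGF-b1 (1.38e-23), and the HFD libraries rose 5.25-fold against CD mock. Mpeg1, a pore-forming protein of phagocytes, had 139, 133 and 151 CPM with TGF-b1 and SB431542, 65.6, 65.1 and 69.1 CPM with TGF-b1, 295, 293 and 291 CPM in HFD mock, and 66.5, 70.1 and 69.4 CPM in CD mock. Its TGF-b1 and CD mock libraries overlapped (log2 -0.04, edgeR adjusted p = 0.439).

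Lyz2 was the only pan-macrophage gene that rose with TGF-b1. It had 556, 556 and 571 CPM with TGF-b1 and SB431542, 378, 386 and 389 CPM with TGF-b1, 1159, 1162 and 1166 CPM in HFD mock, and 306, 305 and 309 CPM in CD mock. The 4 groups did not overlap, and the log2 change was 0.33 ± 0.02 for TGF-b1 against CD mock, 0.55 ± 0.02 for SB431542 against TGF-b1 and 1.92 ± 0.02 for HFD against CD mock. Cd14, the co-receptor for bacterial lipopolysaccharide, had the largest fall of the class with TGF-b1, by 1.09 ± 0.09 log2 units (edgeR adjusted p = 1.66e-15), and Cybb, the oxidase subunit of phagocytes, fell by 0.95 ± 0.09. Cd68, Spi1, Fcgr3 and Csf1r fell by 0.41, 0.46, 0.21 and 0.17. The summed CPM of the 14 genes was 633 ± 8.4 with TGF-b1 and 600.1 ± 4.51 in CD mock (SD, n = 3 each), and its direction turned when libraries were scaled by total counts (584 with TGF-b1 against 613 in CD mock).

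**Figure D2:**
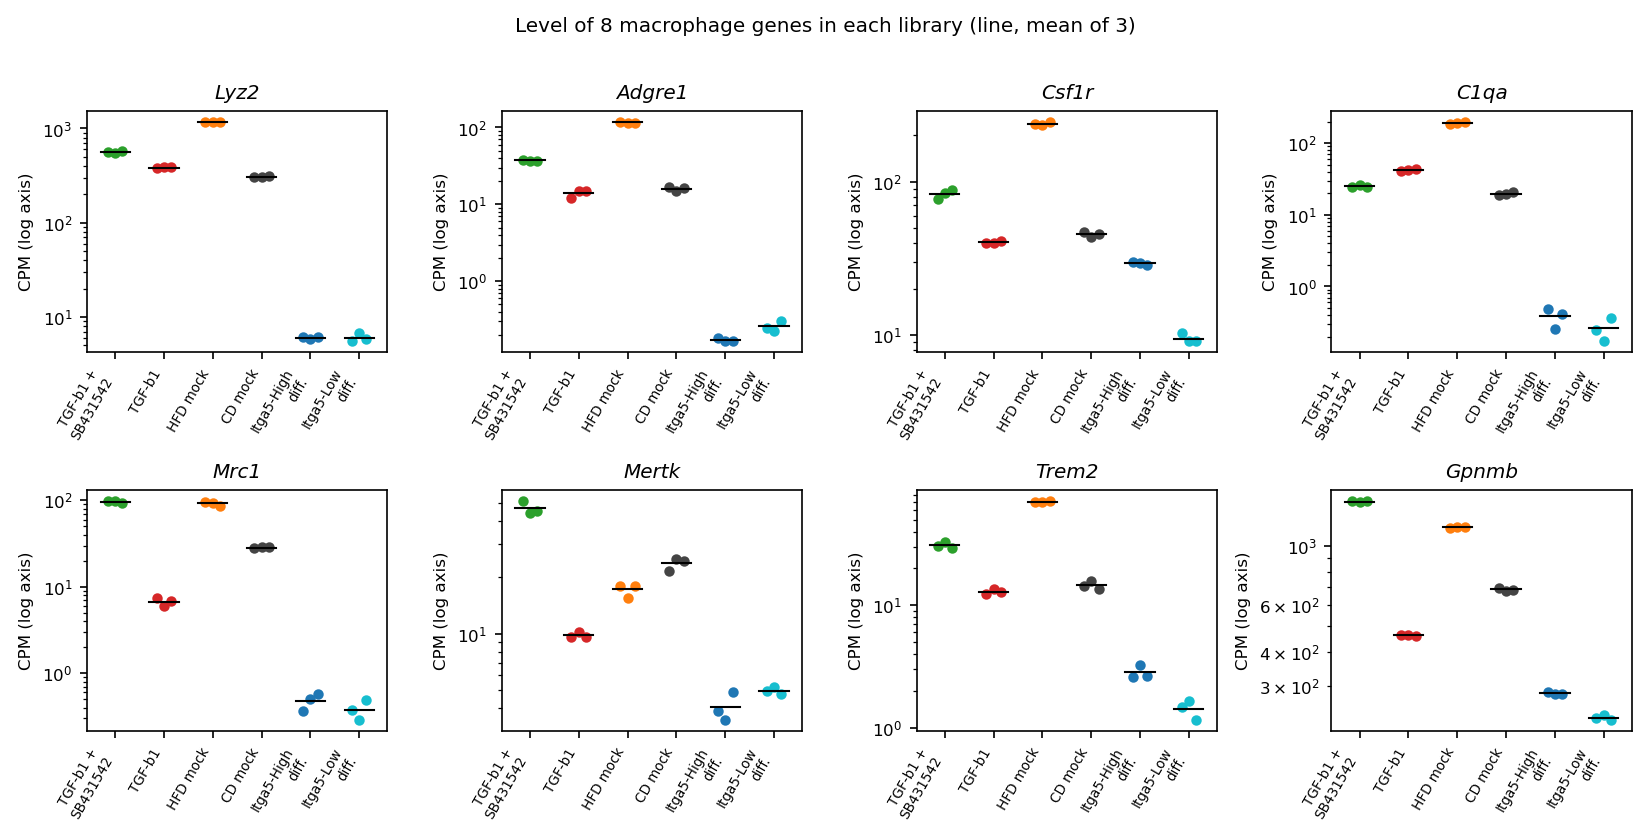
CPM in each library (points), on a log axis, for 8 members in the 6 groups, with lines at the mean of 3; differentiated cells come from a table normalized separately. The SB431542 libraries lie above CD mock for all 8 genes, and HFD mock lies above it for all but Mertk. Among the undifferentiated groups, Mrc1, Mertk, Csf1r, Trem2 and Gpnmb are lowest with TGF-b1.

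The genes of resident-like macrophages had the lowest class median with TGF-b1, -1.68 on the log2 scale. Of the 5, 4 fell, all by at least 1 log2 unit, where 11.2% of all genes fell by as much. 1 of the 4 was Cd163, with 14 counts in CD mock and 2 with TGF-b1 over 3 libraries each. All 5 rose with SB431542 against TGF-b1 (median 2.78) and against CD mock (median 1.76), where 41.4% and 30.6% of all genes were higher. Mrc1, the mannose receptor CD206 (chromosome 2, 14229414 to 14332023), had 97.7, 98.2 and 93.8 CPM with TGF-b1 and SB431542, 7.42, 5.94 and 6.81 CPM with TGF-b1, 95.2, 94.4 and 86.6 CPM in HFD mock, and 27.8, 28.9 and 28.7 CPM in CD mock. The TGF-b1 libraries were lowest and CD mock second lowest, while the SB431542 and HFD libraries overlapped. Mrc1 fell 4.22-fold with TGF-b1 against CD mock (log2 -2.08 ± 0.10, edgeR adjusted p = 2.9e-24), and rose 14.3-fold with SB431542 against TGF-b1, 3.39-fold with SB431542 against CD mock and 3.23-fold in HFD against CD mock.

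Folr2, a folate receptor of resident macrophages, had 40.3, 38.7 and 37.8 CPM with TGF-b1 and SB431542, 5.80, 6.12 and 5.19 CPM with TGF-b1, 73.9, 78.4 and 76.5 CPM in HFD mock, and 17.5, 19 and 17.9 CPM in CD mock. The 4 groups did not overlap, and the gene fell 3.21-fold with TGF-b1 (edgeR adjusted p = 1.67e-19) and rose 6.88-fold with SB431542 against TGF-b1 (5.74e-31). Mertk, a receptor kinase for the uptake of dying cells, had 51.1, 44.3 and 45.1 CPM with TGF-b1 and SB431542, 9.63, 10.2 and 9.64 CPM with TGF-b1, 18.1, 15.5 and 18.1 CPM in HFD mock, and 21.7, 25.2 and 24.5 CPM in CD mock. It was the 1 member that fell in HFD cells, by 0.46 ± 0.08 log2 units (edgeR adjusted p = 2.4e-06), with no overlap between HFD and CD mock libraries. It fell 2.44-fold with TGF-b1 and rose 4.78-fold with SB431542 against TGF-b1. Cd163, a haemoglobin scavenger receptor, had 32, 40 and 13 counts with TGF-b1 and SB431542, 0, 2 and 0 with TGF-b1, 6, 10 and 6 in HFD mock, and 3, 6 and 5 in CD mock. With so few counts the size of its fitted change with TGF-b1 is not given, and its call was lost without TGF-b1 replicate 1 (edgeR adjusted p = 0.0597) or replicate 3 (0.0869). Cd163 passed the low-count filter only through the SB431542 libraries, where it was highest. Its calls as higher there are not independent of that filter. Pf4, a chemokine also made by platelets, had 5.48, 6.76 and 6.37 CPM with TGF-b1 and SB431542 and 1.28, 1.42 and 1.21 CPM with TGF-b1, and it was not called with TGF-b1 against CD mock (log2 -0.47, edgeR adjusted p = 0.11).

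Set against the pan-macrophage genes of the same library, the summed CPM of the resident-like class was 15.8% ± 0.825 of the pan-macrophage sum with TGF-b1 and SB431542, 3.73% ± 0.154 with TGF-b1, 7.94% ± 0.188 in HFD mock and 12.1% ± 0.478 in CD mock (SD, n = 3 each). The ranges of the 4 groups did not overlap. This ratio is a description with no test, and it does not depend on how libraries are scaled.

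**Figure D3:**
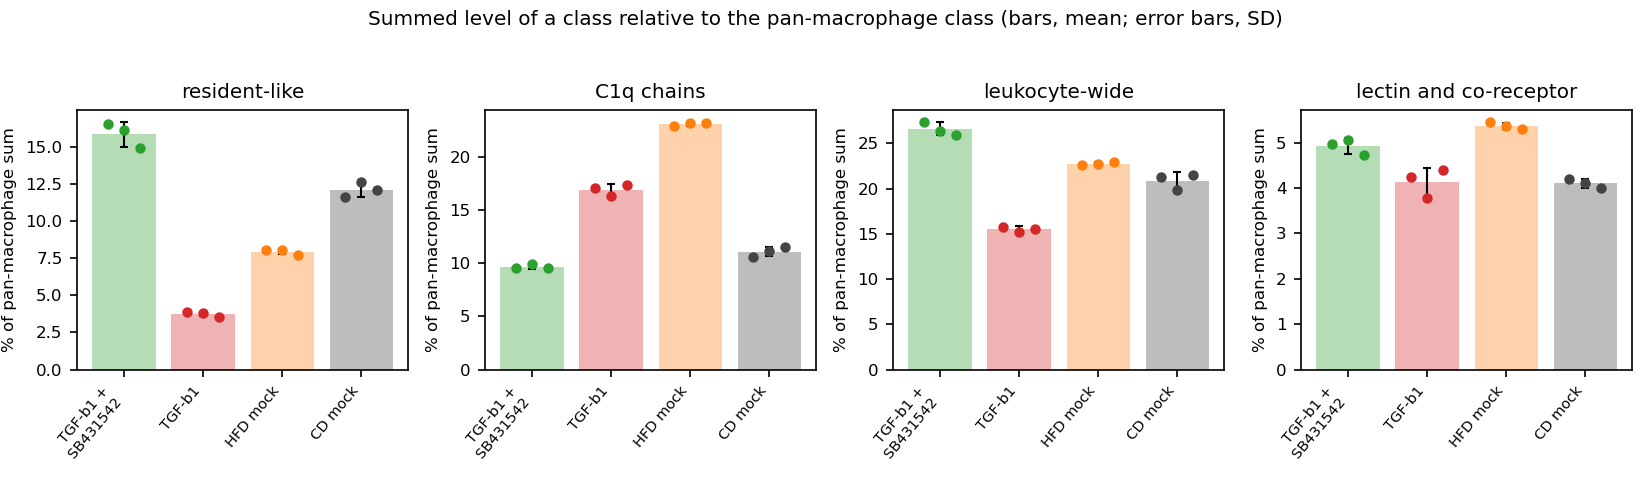
Summed CPM of 4 classes as a percentage of the summed CPM of the pan-macrophage class, per library (points), in the 4 undifferentiated groups, with bars for the mean and error bars for the SD. The resident-like class is highest with SB431542 (15.8%) and lowest with TGF-b1 (3.73%), and the C1q class is highest in HFD mock (23.1%).

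C1q is the recognition molecule of the classical complement pathway, built from the chains encoded by C1qa, C1qb and C1qc, which in tissues are made mainly by macrophages. The 3 genes lie on chromosome 4 within 18719 bases: C1qb at 136880126 to 136886200, C1qc at 136889802 to 136892914 and C1qa at 136895916 to 136898844, all on the minus strand of mm10. All 3 rose with TGF-b1, the opposite of the resident-like class, and all 3 rose in HFD cells, where 33.4% and 27.1% of all genes were higher. C1qa had 24.1, 26.1 and 24.3 CPM with TGF-b1 and SB431542, 40.8, 41.7 and 43.9 CPM with TGF-b1, 188, 193 and 196 CPM in HFD mock, and 19.1, 19.4 and 20.7 CPM in CD mock. No 2 groups overlapped. C1qa rose 2.14-fold with TGF-b1 (log2 1.10 ± 0.06, edgeR adjusted p = 1.49e-20), fell by 0.77 ± 0.06 log2 units with SB431542 against TGF-b1 (1.13e-16) and rose 9.73-fold in HFD against CD mock (3.2e-44).

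C1qb, whose promoter window is shown above, had 47.8, 51.7 and 51.1 CPM with TGF-b1 and SB431542, 32.1, 29.8 and 32.3 CPM with TGF-b1, 207, 199 and 203 CPM in HFD mock, and 21.4, 26.6 and 24.7 CPM in CD mock. C1qc had 41.8, 40.8 and 42.4 CPM with TGF-b1 and SB431542, 34.2, 31.3 and 35.7 CPM with TGF-b1, 180.3, 191 and 188 CPM in HFD mock, and 22.9, 20.7 and 24.2 CPM in CD mock. For both genes CD mock was lowest and HFD highest, without overlap. With SB431542 against TGF-b1, C1qb rose by 0.67 ± 0.06 and C1qc by 0.30 ± 0.06 log2 units, while C1qa fell. The ratio of C1qa to C1qb counts, which no scaling between libraries can move, was 0.505, 0.505 and 0.475 with TGF-b1 and SB431542, 1.27, 1.40 and 1.36 with TGF-b1, 0.906, 0.972 and 0.966 in HFD mock, and 0.893, 0.731 and 0.840 in CD mock. The ratio was lowest in the libraries with SB431542 and highest in those with TGF-b1 alone. The ratio of C1qc to C1qb moved less, with means of 0.831 with TGF-b1 and SB431542, 1.07 with TGF-b1, 0.920 in HFD mock and 0.944 in CD mock. As a share of the pan-macrophage sum, the C1q chains were 9.68% ± 0.249 with TGF-b1 and SB431542, 16.9% ± 0.602 with TGF-b1, 23.1% ± 0.174 in HFD mock and 11.1% ± 0.443 in CD mock (SD, n = 3 each).

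**Figure D4:**
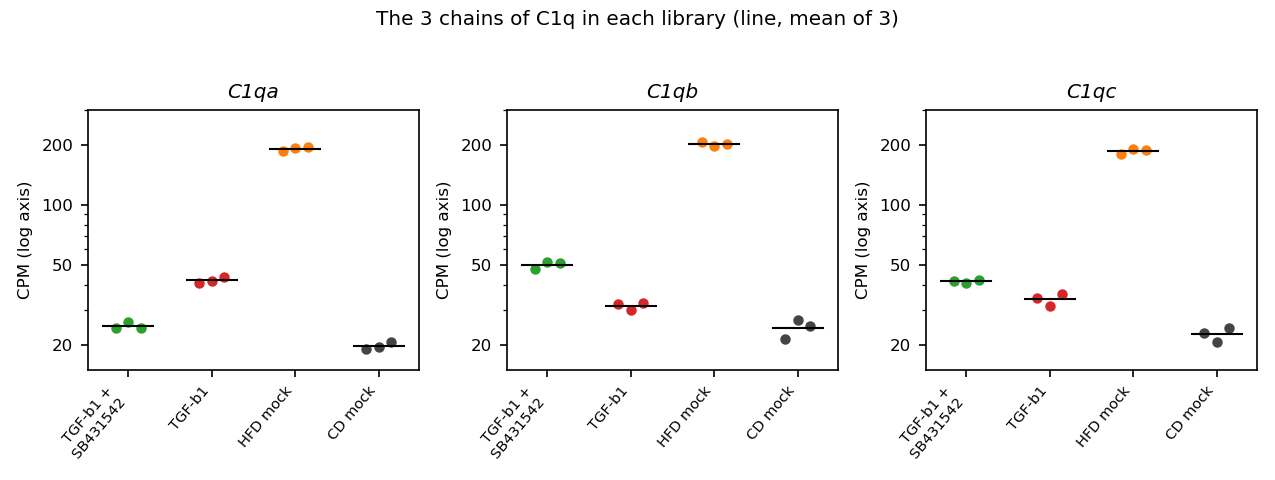
CPM of C1qa, C1qb and C1qc in each library (points), on a log axis, in the 4 undifferentiated groups, with lines at the mean of 3. With SB431542 C1qa lies below its TGF-b1 libraries, while C1qb and C1qc lie above theirs, and HFD mock is highest for all 3.

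The leukocyte-wide genes mark white blood cells of any lineage. TGF-b1 lowered 3 of 6 and raised 1, beside 34.2% lower and 33.4% higher over all genes. SB431542 raised 5 of 6 against TGF-b1 (median log2 1.64), where 41.4% of all genes were higher, and all 6 rose in HFD cells (median 2.67), where 27.1% were. Ptprc, which encodes CD45, had 24.5, 23.3 and 24.1 CPM with TGF-b1 and SB431542, 8.52, 8.42 and 8.83 CPM with TGF-b1, 63.2, 64.0 and 72.6 CPM in HFD mock, and 8.87, 9.19 and 10.4 CPM in CD mock. The TGF-b1 libraries lay just below CD mock, a difference that was not called (log2 -0.14), and HFD was 7.02-fold above CD mock. Laptm5, a lysosomal protein of blood cells, had 125, 117 and 114 CPM with TGF-b1 and SB431542, 38.6, 35.8 and 38.4 CPM with TGF-b1, 243, 246 and 247 CPM in HFD mock, and 43.8, 39.4 and 45.7 CPM in CD mock. Its fall with TGF-b1 was 0.18 log2 units, and it was not called without CD mock replicate 3 (edgeR adjusted p = 0.0585).

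Cd53, a leukocyte tetraspanin, had 60.8, 60.1 and 59.6 CPM with TGF-b1 and SB431542, 14.1, 15.4 and 12.2 CPM with TGF-b1, 54.1, 54.4 and 53.7 CPM in HFD mock, and 22.8, 22.3 and 21.6 CPM in CD mock. Unlike Ptprc, it stood slightly higher with SB431542 than in HFD mock. It fell by 0.70 ± 0.08 log2 units with TGF-b1 and rose 4.38-fold with SB431542 against TGF-b1 (edgeR adjusted p = 2.11e-31). Itgb2, the shared beta chain of the leukocyte integrins, had 91.1, 91.1 and 98.4 CPM with TGF-b1 and SB431542, 30.3, 27.9 and 31.9 CPM with TGF-b1, 132, 133 and 132 CPM in HFD mock, and 44.4, 40.5 and 44.2 CPM in CD mock, and it fell by 0.50 log2 units with TGF-b1. Spn, the sialoglycoprotein CD43, was low, at 3.82, 1.91 and 2.23 CPM with TGF-b1 and SB431542, 1.79, 1.86 and 2.29 CPM with TGF-b1, 13.7, 12.3 and 13.7 CPM in HFD mock, and 1.41, 0.849 and 0.685 CPM in CD mock. It rose by 1.04 ± 0.31 log2 units with TGF-b1 (edgeR adjusted p = 0.0035) and 13.6-fold in HFD cells.

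Among the lectins and co-receptors, TGF-b1 raised Clec7a, Cd86 and Slamf9 and lowered Cd84 and Cd72, beside 33.4% higher and 34.2% lower over all genes. All 5 rose in HFD cells (median log2 2.95), where 27.1% of all genes were higher. Cd72, an inhibitory receptor of B cells that macrophages also carry, had 6.49, 6.25 and 6.45 CPM with TGF-b1 and SB431542, 0.767, 1.33 and 1.75 CPM with TGF-b1, 47.9, 46.4 and 46.2 CPM in HFD mock, and 2.37, 2.40 and 2.31 CPM in CD mock. The groups did not overlap, and its rise in HFD cells was the largest of the 36 members, 19.7-fold (log2 4.30 ± 0.16, edgeR adjusted p = 1.82e-33). Summed CPM of the B cell list was at most 0.23 in any undifferentiated library.

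Slamf9, a receptor of the SLAM family, had 3.17, 3.16 and 3.07 CPM with TGF-b1 and SB431542, 3.15, 2.75 and 2.22 CPM with TGF-b1, 18.8, 21 and 20.1 CPM in HFD mock, and 2.02, 1.34 and 1.54 CPM in CD mock, with a 12.3-fold rise in HFD cells. Clec7a, the beta-glucan receptor dectin, had 15.9, 17.6 and 16.6 CPM with TGF-b1 and SB431542, 11.8, 8.42 and 10.4 CPM with TGF-b1, 11.4, 11.3 and 11.7 CPM in HFD mock, and 7.29, 6.58 and 6.85 CPM in CD mock. It was highest with SB431542, and its HFD and TGF-b1 libraries overlapped. Cd84, a self-binding receptor of the SLAM family, had 31.9, 31.5 and 30.4 CPM with TGF-b1 and SB431542, 9.55, 10.5 and 12.9 CPM with TGF-b1, 56.1, 53.7 and 54.0 CPM in HFD mock, and 13.1, 13.9 and 13.3 CPM in CD mock. Its fall with TGF-b1, by 0.27 log2 units, was not called without TGF-b1 replicate 1 (log2 -0.18, edgeR adjusted p = 0.127). Cd86, a co-stimulatory ligand for T cells, stayed at or below 2.56 CPM, with 1.80, 1.76 and 2 CPM with TGF-b1 and SB431542, 1.19, 0.798 and 0.809 CPM with TGF-b1, 2.56, 2.37 and 2.11 CPM in HFD mock, and 0.351, 0.283 and 0.257 CPM in CD mock. Its rise with TGF-b1, by 1.61 ± 0.50 log2 units (edgeR adjusted p = 0.00155), rested on 35 counts with TGF-b1 and 11 counts in CD mock over 3 libraries each.

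The 3 genes of lipid-associated macrophages rose with SB431542 against TGF-b1 and in HFD cells, where 41.4% and 27.1% of all genes were higher. Trem2, a lipid-sensing receptor, had 30.4, 32.7 and 29.2 CPM with TGF-b1 and SB431542, 12.4, 13.5 and 12.9 CPM with TGF-b1, 69.6, 70.2 and 70.9 CPM in HFD mock, and 14.4, 15.8 and 13.6 CPM in CD mock. It was not called with TGF-b1 (log2 -0.18, edgeR adjusted p = 0.0589), and it rose by 1.25 ± 0.08 log2 units with SB431542 against TGF-b1 and 4.78-fold in HFD against CD mock. Msr1, the scavenger receptor A, had 48.4, 48.1 and 48.1 CPM with TGF-b1 and SB431542, 17.3, 17.6 and 17.7 CPM with TGF-b1, 91.0, 95.8 and 96.1 CPM in HFD mock, and 21.3, 20.6 and 18.8 CPM in CD mock.

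Gpnmb took a different order from the other 2, with its highest level under SB431542 and not in HFD mock. It had 1463, 1455 and 1468 CPM with TGF-b1 and SB431542, 464, 464 and 459 CPM with TGF-b1, 1169.7, 1174 and 1175 CPM in HFD mock, and 696, 678 and 686 CPM in CD mock, and no groups overlapped. It fell by 0.57 ± 0.01 log2 units with TGF-b1, and rose by 1.66 ± 0.01 with SB431542 against TGF-b1 and by 0.77 ± 0.01 in HFD against CD mock. The lipid-associated sum was 127.9% ± 2.31 of the pan-macrophage sum with TGF-b1 and SB431542, 77.8% ± 1.46 with TGF-b1, 53.1% ± 0.139 in HFD mock and 120.3% ± 1.93 in CD mock (SD, n = 3 each), and Gpnmb made most of it. Gpnmb rose 1.71-fold in HFD against CD mock, while Trem2 rose 4.78-fold and Msr1 4.65-fold. The mean pan-macrophage sum was 2517.2 CPM in HFD mock and 600.1 CPM in CD mock. The lower share in HFD mock therefore describes Gpnmb and not Trem2 or Msr1, and the share without Gpnmb was not computed.

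Further macrophage genes outside the 36 were counted from a separate list of known genes. With TGF-b1, 21 of the 48 tested fell, 14 rose and 13 were not called (median log2 -0.23), near the background of 34.2% lower and 33.4% higher. With SB431542 against TGF-b1, 39 rose and 4 fell (median 1.22), where 41.4% of all genes were higher, and 46 rose and 1 fell in HFD against CD mock (median 2.25), where 27.1% were. The 3 most abundant were Lcp1, an actin-bundling protein of leukocytes, Sirpa, a receptor for the don't-eat-me ligand CD47 that other cells also carry, and Ctss, a lysosomal protease of antigen-presenting cells. Lcp1 averaged 224 CPM with TGF-b1 and SB431542, 47.5 CPM with TGF-b1, 476 CPM in HFD mock and 82.4 CPM in CD mock. Sirpa fell by 0.95 log2 units with TGF-b1, and Ctss rose by 0.23. Among 10 further genes of resident-like macrophages, 6 fell and 2 rose with TGF-b1 (median log2 -0.54), beside 34.2% lower and 33.4% higher over all genes. With SB431542 against TGF-b1, 8 rose and 2 fell, beside 41.4% higher and 38.3% lower. In HFD against CD mock, 6 rose and 2 fell (median 0.62), beside 27.1% higher and 26.6% lower. Stab1, a scavenger receptor also found on sinusoidal endothelium, averaged 117 CPM with TGF-b1 and SB431542, 32.0 CPM with TGF-b1, 199 CPM in HFD mock and 52.9 CPM in CD mock. Gas6 and Maf, more abundant than Stab1, were also lowest with TGF-b1 alone. Both were also high in the sorted and differentiated cells, where Adgre1 was at most 0.303 CPM. There Gas6 had 1448.9, 1466.9 and 1425.8 CPM in Itga5-High and 3534.0, 3547.0 and 3543.5 CPM in Itga5-Low cells. Maf had 80.6, 84.8 and 81.5 CPM in Itga5-High and 89.2, 93.4 and 95.3 CPM in Itga5-Low cells. Which cells made these transcripts was not tested. Maf was lower in HFD mock (143.6, 139.4 and 141.3 CPM) than in CD mock (183.9, 187.8 and 191.8 CPM). Gas6 was lower with TGF-b1 and SB431542 (435.9, 445.7 and 450.4 CPM) than in CD mock (546.8, 529.0 and 532.7 CPM). Among 19 further lipid-associated genes, several of which other cells express at high levels, 14 fell and 5 rose with TGF-b1 (median log2 -0.36). In HFD against CD mock, 13 rose and 5 fell. The shares over all genes were 34.2% lower and 33.4% higher with TGF-b1, and 27.1% higher and 26.6% lower in HFD.

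Csf1, the main growth factor of macrophages, is made by stromal cells, and it rose with TGF-b1 and fell when SB431542 was added. It averaged 1559 ± 14.7 CPM with TGF-b1 and SB431542, 3213 ± 14.2 CPM with TGF-b1, 2827 ± 17 CPM in HFD mock and 1992 ± 10.9 CPM in CD mock (SD, n = 3 each). The log2 difference was 0.69 with TGF-b1 against CD mock, -1.04 with SB431542 against TGF-b1 and 0.50 in HFD against CD mock. Il34, the other ligand of Csf1r, averaged 11.6 CPM with TGF-b1 and SB431542, 1.03 CPM with TGF-b1, 4.74 CPM in HFD mock and 3.70 CPM in CD mock, and its HFD difference was not called. Ccl2, a chemokine that draws monocytes, averaged 289.6 CPM with TGF-b1 and SB431542, 45.3 CPM with TGF-b1, 119 CPM in HFD mock and 92.3 CPM in CD mock.

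Markers of other cells moved along with some of these changes. The summed CPM of the 6 endothelial genes was 648.2 to 660.7 with TGF-b1 and SB431542, 163.9 to 168.1 with TGF-b1, 106.6 to 116.2 in HFD mock and 325.5 to 341.9 in CD mock. The sum of the mesothelial genes was 1946.7 to 1958.9 with TGF-b1 and SB431542, 582.1 to 596.4 with TGF-b1, 543.5 to 557.3 in HFD mock and 2114.2 to 2135.7 in CD mock. TGF-b1 lowered 5 of 6 genes of each list, where 34.2% of all genes were lower. All 6 of each were lower in HFD than in CD mock cells, where 26.6% of all genes were. Both sums were thus lower with TGF-b1, like the resident-like genes, and lower in HFD cells, unlike most macrophage genes. The 5 adipocyte genes tested summed to 879.1 to 884.6 CPM under SB431542 plus TGF-b1, 44.3 to 46.8 CPM under TGF-b1, 94.1 to 99.9 CPM in HFD mock and 175.0 to 179.6 CPM in CD mock. All 5 fell with TGF-b1 (median log2 -4.81), and all 5 rose with SB431542 against TGF-b1 (median 8.61) and against CD mock (median 2.81), while 4 of 5 fell in HFD cells. The shares over all genes were 34.2%, 41.4%, 30.6% and 26.6%, in the same order. Of 10 preadipocyte and fibroblast genes, 8 fell and 2 rose with TGF-b1, 8 rose and 2 fell with SB431542 against TGF-b1, and 8 fell and 2 rose in HFD cells. Over all genes these shares were 34.2% and 33.4%, 41.4% and 38.3%, and 26.6% and 27.1%. Kit, the 1 gene of the mast cell list with enough counts to be tested, averaged 39.5 CPM under SB431542 plus TGF-b1, 3.08 CPM under TGF-b1, 7.52 CPM in HFD mock and 20.4 CPM in CD mock. The part of these cells in the differences of the macrophage genes was not tested. The T and NK cell list summed to at most 1.98 CPM and the neutrophil list to at most 1.27 CPM in any undifferentiated library.

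In the sorted and differentiated cells, most macrophage genes were near the limit of detection. Of the 25 members present in that table, 13 had enough counts to be tested and 12 did not, 11 had fewer than 10 counts in every library, and the other 11 of the 36, among them Ptprc, Spi1 and Cd163, are not analysed here in those cells. Adgre1 had 0.182, 0.168 and 0.165 CPM in Itga5-High and 0.247, 0.228 and 0.303 CPM in Itga5-Low cells, and Lyz2 had 6.07, 5.89 and 6.20 CPM in Itga5-High and 5.51, 6.72 and 5.82 CPM in Itga5-Low cells. The tables were filtered and normalized separately, so levels across them are given side by side with no test. As a percentage of the CD mock mean, Lyz2 stood at 1.97% in Itga5-High and 1.96% in Itga5-Low cells, Adgre1 at 1.07% and 1.62%, and 15 of the 25 members were under 5% in both.

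A few members stood at a higher percentage of the CD mock mean. Csf1r averaged 29.5 CPM in Itga5-High and 9.54 CPM in Itga5-Low cells, which was 64.7% and 20.9% of the CD mock mean, and Gpnmb stood at 41.0% and 33.1%. Mertk was at 17.1% and 20.9%, Cd14 at 17.8% and 19.4%, Trem2 at 19.5% and 9.78%, Cd53 at 17.3% and 7.71%, and Clec7a at 16.3% and 16.7%.

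Between the sorted populations, 6 of the 13 tested members rose in Itga5-High cells, none fell and 7 were not called, where 27.0% of the 13468 genes tested were higher and 26.5% lower. At an unadjusted p under 0.05 by edgeR's test 0 members were lower, where 28.8% of all genes were, and DESeq2 called 5 higher and 0 lower. The median log2 difference was 0.14 over the 13 members, and 3 rose by at least 1 log2 unit, against 2.03% of all genes tested, with 0 lower by as much, against 2.09%. Csf1r had 30.0, 29.7 and 28.8 CPM in Itga5-High and 10.3, 9.12 and 9.16 CPM in Itga5-Low cells, a 3.10-fold rise without overlap (log2 1.63 ± 0.08, edgeR adjusted p = 6.42e-19). Cd53 had 3.94, 3.28 and 4.30 CPM in Itga5-High and 1.73, 1.65 and 1.76 CPM in Itga5-Low cells (log2 1.17 ± 0.21, edgeR adjusted p = 1.07e-05). Laptm5 had 1.09, 0.758 and 1.24 CPM in Itga5-High and 0.433, 0.513 and 0.182 CPM in Itga5-Low cells (log2 1.44 ± 0.45, edgeR adjusted p = 0.00271). Its counts were 18, 9 and 15 in Itga5-High and 7, 9 and 3 in Itga5-Low cells. Laptm5 thus passed the low-count filter only through the group where it was higher. Its place among the 6 and the 3 above is not independent of that filter.

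Trem2 had 2.61, 3.28 and 2.65 CPM in Itga5-High and 1.48, 1.65 and 1.15 CPM in Itga5-Low cells (log2 0.97 ± 0.24, edgeR adjusted p = 0.000663). Gpnmb had 284, 279.7 and 280.3 CPM in Itga5-High and 227, 233 and 223 CPM in Itga5-Low cells, a rise of 0.31 ± 0.02 log2 units without overlap. The libraries of Cd68, the lysosomal protein of macrophages, overlapped although it was called (log2 0.60 ± 0.22, edgeR adjusted p = 0.0273), and it was not called by DESeq2 (adjusted p = 0.0755) or when any of 4 of the 6 libraries was left out. The log2 difference was 0.01 for Lyz2, -0.06 for Mpeg1, -0.11 for Cd14, -0.02 for Clec7a and 0.14 for Folr2, none of them called, and Itgb2, the lowest of the 13, had -0.59 (edgeR adjusted p = 0.34). Mertk had 3.88, 3.45 and 4.88 CPM in Itga5-High and 4.95, 5.19 and 4.79 CPM in Itga5-Low cells (log2 -0.30, edgeR adjusted p = 0.119).

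**Figure D5:**
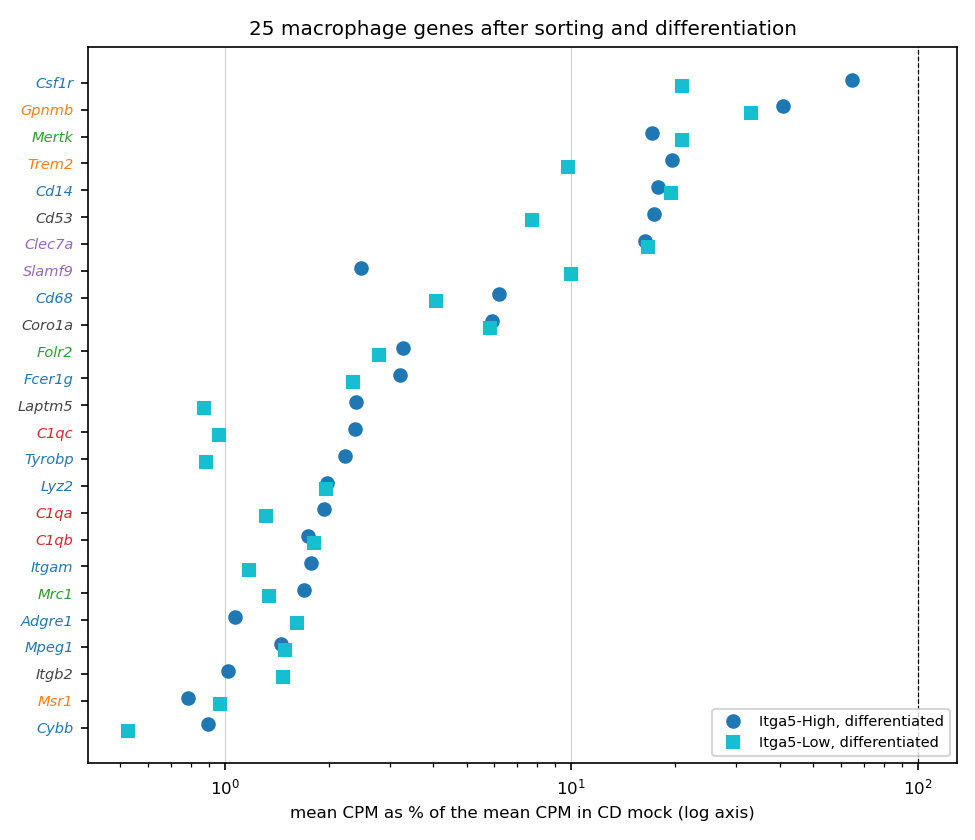
Mean CPM of the 25 macrophage genes with a row in Itga5-High (circles) and Itga5-Low (squares) differentiated cells as a percentage of the CD mock mean, on a log axis. Csf1r stands at 64.7% in Itga5-High and 20.9% in Itga5-Low cells, while Lyz2 is near 2% in both.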

How the data were processed

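Polyadenylated RNA of 18 libraries was measured in 2 tables, 12 undifferentiated and 6 differentiated libraries. The values the authors deposited are estimated counts per RefSeq transcript. Per the submitters' processing notes the tools include fastp, STAR and featureCounts, with mm10; tool versions, strandedness and the step that made fractional values were not given in the sources used here, so reads of overlapping or antisense genes cannot be told apart.

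The transcripts of a gene symbol were added up and the sums rounded. Genes were filtered with filterByExpr, scaled with TMM factors and tested two-sided with edgeR 4.0.16 (quasi-likelihood, R 4.3.3) with Benjamini-Hochberg adjustment over all 14078 and 13468 genes tested, at adjusted p under 0.05. The 12 and the 6 libraries were fitted separately, each with a shared spread. CPM use TMM factors. The standard errors are from fits with the dispersion kept at 1e-04 or above, since 10 members in undifferentiated and 1 in differentiated cells were estimated below it; that alternative was chosen after seeing the data. Intervals cover counting error and the spread between libraries only. Alternatives were scaling by total counts or by size factors (RLE), no low-count filter, a minimum change of 1 log2 unit, Lyz2 summed with Lyz1, the spread from the compared groups alone, DESeq2 1.42.0, a replicate block and leaving out each library. The steps were tested on simulated data.

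Values in every library are given for the 3 members of each class with the highest mean count in undifferentiated cells, for Adgre1, Csf1r, Ptprc, Mrc1 and Trem2, and for members called against the majority. Cd163 and Pf4 complete their class, and Cd14, Cybb and Cd68 were added after their values were seen. The members and lists were chosen with earlier results of these data known. Promoters are RefSeq windows on GRCm38.p6.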

Additional observations from a re-analysis of the deposited data

How the results depend on the processing

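The counts of called members kept within 1.5 times under DESeq2 (8 higher and 16 lower for TGF-b1, 32 and 1 for SB431542 against TGF-b1, 35 and 0 for SB431542 against CD mock, 34 and 1 for HFD, 5 and 0 for Itga5-High). With calls at a change of at least 1 log2 unit they were smaller: 3 higher and 5 lower for TGF-b1, 0 lower for SB431542 against TGF-b1, 0 lower for HFD and 3 higher for Itga5-High. Leaving out 1 library gave 8 to 10 higher and 14 to 18 lower for TGF-b1, 32 to 33 higher and 1 lower for SB431542 against TGF-b1, 35 to 36 higher for SB431542 against CD mock, and 5 to 6 higher for Itga5-High against Itga5-Low. Members lower in Itga5-High numbered 0 to 1: Itgb2 without Itga5-High replicate 2 (log2 -1.57, edgeR adjusted p = 0.0359) and Mertk without Itga5-High replicate 3 (-0.43, 0.045). The median for Itga5-High ranged from -0.05 to 0.32 in these fits, and the cause was not tested. Replicate numbers did not pair the samples (correlations -0.0549 to 0.0226), and the replicate block left each count as it was, with 8 higher and 17 lower for TGF-b1. As log2 ratios to the pan-macrophage sum against CD mock, the resident-like class with TGF-b1 was -1.70, and -1.38 with Lyz2 left out, the C1q class in HFD was 1.06, 0.92 without Lyz2 and 1.13 per kilobase, and the lipid-associated class in HFD was -1.18, -1.32 without Lyz2 and -1 per kilobase. No alternative left out Gpnmb, which made most of the lipid-associated sum. Over the 36 members and all comparisons, 2027 alternative values gave the same call in 1990, a lost call in 19 and a gained call in 18. A reversal of direction was counted only where the main or the alternative fit made a call, and there were 0. Changes of sign in values called by neither fit were counted among the 1990. For TGF-b1 against CD mock, calls were lost for Fcgr3 (-0.20 by DESeq2, -0.14 without CD mock replicate 1 and -0.19 without TGF-b1 replicate 1), Cd163 (without TGF-b1 replicate 1 or 3), Laptm5 (log2 -0.13 without CD mock replicate 3), Cd84 (-0.24 without CD mock replicate 2 and -0.18 without TGF-b1 replicate 1) and Msr1 (-0.17 without CD mock replicate 1). Calls were also lost for Aif1 with SB431542 against CD mock (1.65 with no filter, 1.70 by DESeq2, 1.15 to 1.31 without CD mock replicate 1 or 2 or SB431542 replicate 1) and for Cd68 in Itga5-High (0.60 by DESeq2, 0.41 to 0.59 without Itga5-High replicate 1 or 2 or Itga5-Low replicate 1 or 3). Calls were gained under total-count scaling by Ptprc (-0.29), Coro1a (-0.30), Adgre1 (-0.32), Mpeg1 (-0.19), Pf4 (-0.62) and Trem2 (-0.33) for TGF-b1, and by Spn (0.67) and Slamf9 (0.49) for SB431542 against TGF-b1, and without 1 library by Adgre1 (-0.24 to -0.22), Trem2 (-0.23), Itgam (0.18), Aif1 (1.82 to 2.96) and Spn (0.60). Genes with under 10 counts in some undifferentiated libraries (Cd163, Aif1, Cd86, Cd72, Spn and Fcgr1) are limited by depth, as are members near the limit of detection in differentiated cells.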

Other observations

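Cx3cr1 and Lyve1, named here after their values were seen, differed from most members in some comparisons. Cx3cr1, the fractalkine receptor, had 0.360, 0.147 and 0.154 CPM with TGF-b1 and SB431542, 3.24, 3.28 and 3.37 CPM with TGF-b1, 7.32, 8 and 7.89 CPM in HFD mock, and 0.703, 0.636 and 0.685 CPM in CD mock. It rose by 2.28 ± 0.31 log2 units with TGF-b1, fell by 3.84 ± 0.48 with SB431542 against TGF-b1 and rose by 3.51 ± 0.30 in HFD cells. In these comparisons the directions were those of the member C1qa. With SB431542 against CD mock they differed, as the Cx3cr1 libraries lay below CD mock and those of C1qa above it (log2 0.33). Lyve1, a hyaluronan receptor of a subset of resident macrophages and of lymphatic endothelium, averaged 8.62 CPM with TGF-b1 and SB431542, 0.428 CPM with TGF-b1, 0.324 CPM in HFD mock and 3.63 CPM in CD mock, so that it fell in HFD cells, where Mrc1 and Folr2 rose. With TGF-b1, and with SB431542 against TGF-b1, Lyve1 moved in the same direction as Mrc1 and Folr2.

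Also chosen after their values were seen, Mmp12, Spp1 and H2-Ab1 had wide ranges. Mmp12, the macrophage elastase, averaged 444 CPM with TGF-b1 and SB431542, 34.9 CPM with TGF-b1, 683 CPM in HFD mock and 209 CPM in CD mock. Spp1, osteopontin, averaged 41.2 CPM with TGF-b1 and SB431542, 50.7 CPM with TGF-b1, 378 CPM in HFD mock and 58.9 CPM in CD mock. H2-Ab1, a class II antigen-presenting chain, averaged 60.8 ± 1.27 CPM in Itga5-High and 21.3 ± 1.72 CPM in Itga5-Low cells (SD, n = 3 each), with a log2 difference of 1.51 ± 0.06, and its means in the undifferentiated groups were 1.69 to 4.19 CPM. Other class II genes did not share this level. In the sorted cells Cd74 was at most 0.421 CPM and H2-Eb1 at most 2.02 CPM, and H2-Aa is not analysed there.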
